A study of Caenorhabditis elegans with 4 samples.

Results

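Chromosome III of Caenorhabditis elegans carried 782 HTZ-1 peaks up to 5 kb wide, out of 4940 peaks of any width in the larger of 2 peak lists deposited for this experiment. They were taken by chromosome and width alone, so that the wider domains of the chromosome (150 of its 932 peaks) are left out except where stated. The experiment was a ChIP-seq (sequencing of DNA recovered by chromatin immunoprecipitation) on wild-type animals of the laboratory strain N2, taken whole as L3 larvae from a mixed population of males and hermaphrodites kept at 20 °C. The libraries were 2 ChIP libraries, made with a polyclonal HTZ-1 antibody raised in rabbit and affinity-purified, and 2 libraries of input DNA, and no group differed in genotype or treatment. Whole worms hold all tissues, so a peak may come from any of them. Both lists give positions on WormBase WS220 and a score per peak, and neither names the libraries behind it. The read depth of each library is unknown. The intervals below reflect the number of peaks alone and hold no variation between libraries.

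HTZ-1 is the worm form of H2A.Z, a histone variant that takes the place of H2A in some nucleosomes. It is placed by dedicated remodelling complexes and is known in many organisms for nucleosomes beside the start sites of genes. Autosomes of C. elegans have a gene-rich centre with little recombination, between arms that recombine more and hold more repeats and fewer broadly expressed genes. On chromosome III the centre was taken from 3.72 to 10.34 Mb, which leaves a left arm of 3.72 Mb and a right arm of 3.44 Mb, up to the last peak end at 13783287. Each peak was placed by its midpoint. The smaller list, with the same width limit, held 668 peaks on the chromosome and is called the second call below.

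HTZ-1 peaks did not thin out alike on both arms. The left arm held 141 peaks, or 37.9 per Mb (exact Poisson 95% interval 31.9 to 44.7), the centre 440 peaks, or 66.5 per Mb (60.4 to 73.0), and the right arm 201 peaks, or 58.4 per Mb (50.6 to 67.0). The centre was therefore 1.75 times as dense as the left arm (95% interval 1.45 to 2.14, exact binomial test, two-sided, adjusted p = 2.35e-08). Its ratio to the right arm was 1.14 (0.961 to 1.35, adjusted p = 0.201, exact binomial test), which did not pass the threshold. The arms differed from each other, the left arm having 0.649 times the density of the right arm (0.520 to 0.809, exact binomial test, adjusted p = 2.82e-04). In the 50% of peaks scoring highest the left to right arm ratio was 0.844 and missed the threshold (exact binomial test, adjusted p = 0.360). Adjusted p-values are Benjamini-Hochberg values over 15 tests, with a threshold of 0.05. Those of an alternative are adjusted over the tests it allowed, 13 for the second call and between 2 and 15 elsewhere. These tests take peaks as independent, although peaks lie in groups, which makes the p-values too small and the intervals too narrow.

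The second call gave a flatter picture. Its densities were 41.4 per Mb on the left arm (35.1 to 48.5), 51.2 in the centre (45.9 to 57.0) and 50.8 on the right arm (43.6 to 58.9). The centre to left arm ratio was 1.24 (1.02 to 1.51, exact binomial p = 0.0308), with an adjusted p = 0.100 that missed the threshold. The centre to right arm ratio was 1.01 (0.837 to 1.22, exact binomial test, adjusted p = 0.963). The left to right arm ratio was 0.814 (0.652 to 1.02, exact binomial p = 0.0685) and also missed the threshold (adjusted p = 0.178). The left arm had the lowest density in both lists. With wider peaks included, the second call held 45.4 peaks per Mb on the left arm (38.8 to 52.8). It then held 60.3 in the centre (54.5 to 66.5) and 58.4 on the right arm (50.6 to 67.0), which was not tested. In the larger list with wider peaks included, the centre to right arm ratio was 1.21 (1.04 to 1.42) and passed the threshold (exact binomial test, adjusted p = 0.0233). With the middle 33.3% of the chromosome as the centre it was also 1.21 (1.02 to 1.43, exact binomial test, adjusted p = 0.0287).

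**Figure D1:**
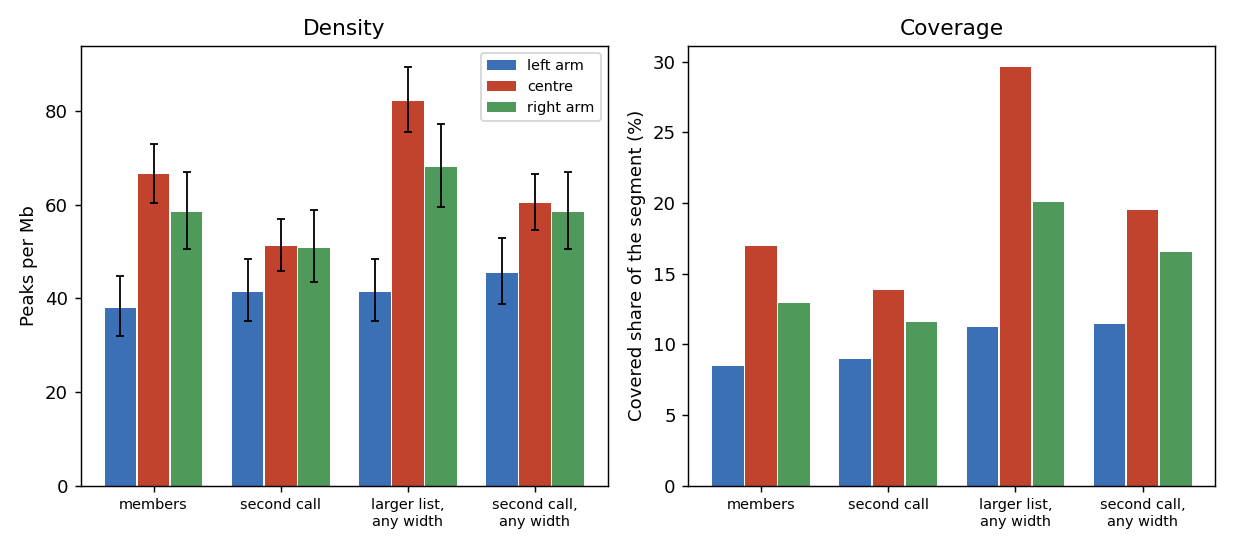
The left panel plots peaks per Mb and the right panel the percentage of bases covered, for the left arm, centre and right arm of chromosome III, in the 782 members (larger list, up to 5 kb), the second call and both lists at any width. Error bars on density are exact Poisson 95% intervals over peaks. The left arm is lowest in each set, and centre and right arm differ least in the second call (51.2 and 50.8 peaks per Mb).

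Coverage had the same order of segments as peak number. Peaks up to 5 kb covered 315 kb, or 8.47%, of the left arm, 1122 kb, or 16.95%, of the centre and 444 kb, or 12.9%, of the right arm. The second call covered 8.97%, 13.8% and 11.6%. Centre peaks were wider, with a median of 2408 bp (order-statistic 95% interval 2261 to 2529 bp), against 1949 bp (1854 to 2101 bp) on the left arm and 1931 bp (1781 to 2137 bp) on the right arm. The second call showed the same order of widths between centre and arms, with medians of 2565, 1943 and 1953 bp in centre, left arm and right arm. Peaks of 3 to 5 kb made up 29.5% of centre peaks and 18.4% of the peaks on either arm.

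The width limit removed more of the centre than of the arms. Wider peaks were 104 of 544 peaks of any width in the centre (19.1%, exact 95% interval 15.9 to 22.7%), 13 of 154 on the left arm (8.44%, 4.57 to 14.0%) and 33 of 234 on the right arm (14.1%, 9.91 to 19.2%). With them the larger list covered 29.6% of the centre, 11.2% of the left arm and 20.1% of the right arm. The widest peaks inside the limit measured 4978 bp (III:5781415-5786392) and 4965 bp (III:866343-871307). The narrowest outside measured 5073 bp (III:1419710-1424782) and 5123 bp (III:5551132-5556254). All 4 of these were also met by the second call.

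The authors' score, whose scale is not stated, had its highest median on the sparse left arm. It was 655 (order-statistic 95% interval 483 to 836), against 461 (371 to 542) in the centre and 372 (270 to 543) on the right arm, with intervals that overlap. In the second call the medians were 474, 335 and 350 in the same order, with overlapping intervals, and the scores of different lists are not on a shared scale as far as is known. On the left arm, 12 of 141 peaks (8.51%) scored 3100 or more, against 22 of 440 (5%) in the centre and 10 of 201 (4.98%) on the right arm. These values depend on the width limit: among peaks of any width the shares at 3100 or more were 12.3% on the left arm, 13.97% in the centre and 14.1% on the right arm, and the median scores 722, 681 and 592. Many peaks share the value of 3100, so order above it carries little weight. Across peaks, which share libraries and caller, the rank correlation of score with width (Spearman's rho) was 0.729 on the left arm (n = 141), 0.687 in the centre (n = 440) and 0.699 on the right arm (n = 201).

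Along the chromosome, peak number went from 17 in the last 0.5 Mb window of the left arm to 28 in the window across the lower bound and 36 in the first of the centre. The 7 full windows of 0.5 Mb on the left arm held 14 to 25 peaks each, with a median of 17. The 12 full centre windows held 21 to 42, with a median of 35.5, and the 6 full right-arm windows 23 to 39, with a median of 28.5. Left-arm and centre windows thus overlapped only between 21 and 25 peaks, while the range of the right arm lay inside that of the centre. The second call gave ranges of 16 to 24, 17 to 33 and 21 to 35 peaks, with medians of 21, 26 and 25.5.

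The densest window of the centre, from 5.0 to 5.5 Mb, held 42 peaks covering 19.7% of its length, and the sparsest, from 9.0 to 9.5 Mb, held 21 peaks covering 11.2%. That sparse window also held 12 of the wider peaks, a number matched in 1 other window (8.0 to 8.5 Mb) and exceeded in none. On the left arm the densest window was 0.5 to 1.0 Mb with 25 peaks, and the sparsest was 2.0 to 2.5 Mb with 14. On the right arm the densest was 11.5 to 12.0 Mb with 39 peaks, more than all but 2 of the centre windows, and the sparsest was 13.0 to 13.5 Mb with 23.

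**Figure D2:**
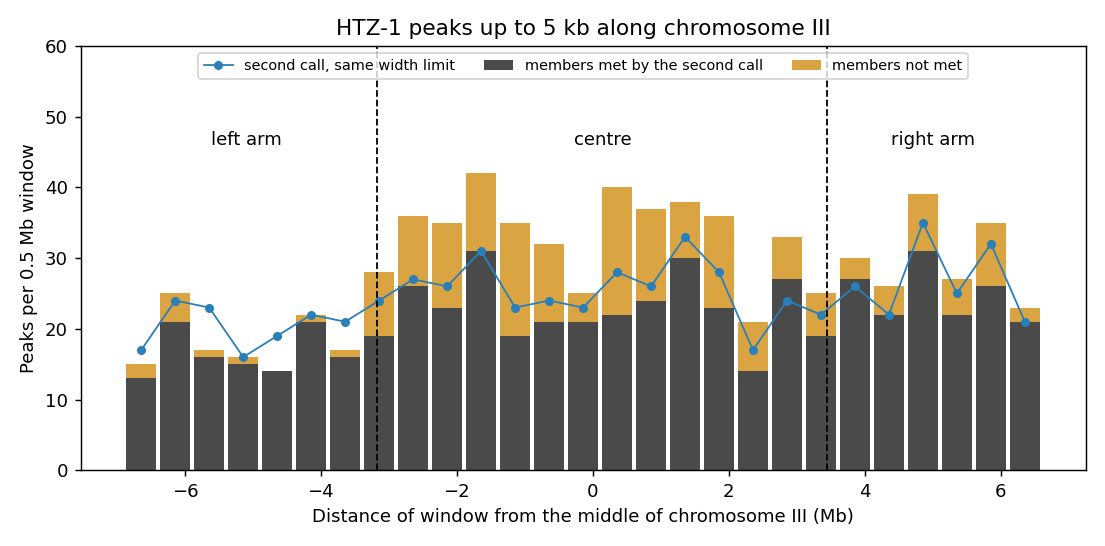
Stacked bars plot the number of members in each full 0.5 Mb window, split into those met (dark) and not met (light) by the second call, against the window's distance from the middle of chromosome III in Mb. Points joined by a line give the second call, and dashed lines mark the bounds of the centre. Left-arm windows hold 14 to 25 members, and members not met stack mostly on the centre.

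Spacing followed density. The median distance between midpoints of neighbouring peaks was 16.2 kb on the left arm (order-statistic 95% interval 12.1 to 21.1 kb), 8.87 kb in the centre (6.78 to 10.8 kb) and 9.10 kb on the right arm (7.97 to 13.98 kb). In the second call it was 16.2, 13.2 and 13.3 kb. The left arm had the same median spacing in both calls, and centre and right arm were closer set in the larger list. Gaps, from the end of a peak to the start of the next, spread widely in each segment, with quartiles of 4.58 and 32.8 kb on the left arm, 1.79 and 15.4 kb in the centre, and 1.98 and 22.7 kb on the right arm.

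Close neighbours were common in the centre and on the right arm. Gaps under 2 kb made up 18 of 140 gaps on the left arm (12.9%, exact 95% interval 7.80 to 19.6%), 124 of 440 in the centre (28.2%, 24.0 to 32.6%) and 52 of 201 on the right arm (25.9%, 19.97 to 32.5%). Over all chromosomes of the larger list the share was 25.2%, so centre and right arm lay near the background and the left arm below it. The centre differed from the left arm by 15.3 percentage points (Fisher's exact test, two-sided, adjusted p = 4.76e-04) and from the right arm by 2.31 points (Fisher's exact test, adjusted p = 0.656). The difference from the left arm missed the threshold when gaps under 1 kb were counted instead (5.94 points, Fisher's exact test, adjusted p = 0.363), and in the 50% of peaks scoring highest (5.91 points, adjusted p = 0.360, Fisher's exact test). It also missed it on peaks met by the second call alone (5.07 points, Fisher's exact test, adjusted p = 0.217). A denser segment holds more short gaps by density alone, so the test against the left arm partly repeats the density test. A difference beyond density was not tested. Gaps under 100 bp, where peaks all but touch, numbered 11 of 440 in the centre (2.50%) and 8 of 201 on the right arm (3.98%). The left arm had 1 of 140 (0.714%), and these shares were not tested. In the second call, gaps under 2 kb made up 7.84%, 10.6% and 12.6% of gaps on left arm, centre and right arm, against a background of 11.5%, and the centre passed the test against neither arm (Fisher's exact tests, adjusted p = 0.673 and 0.682).

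**Figure D3:**
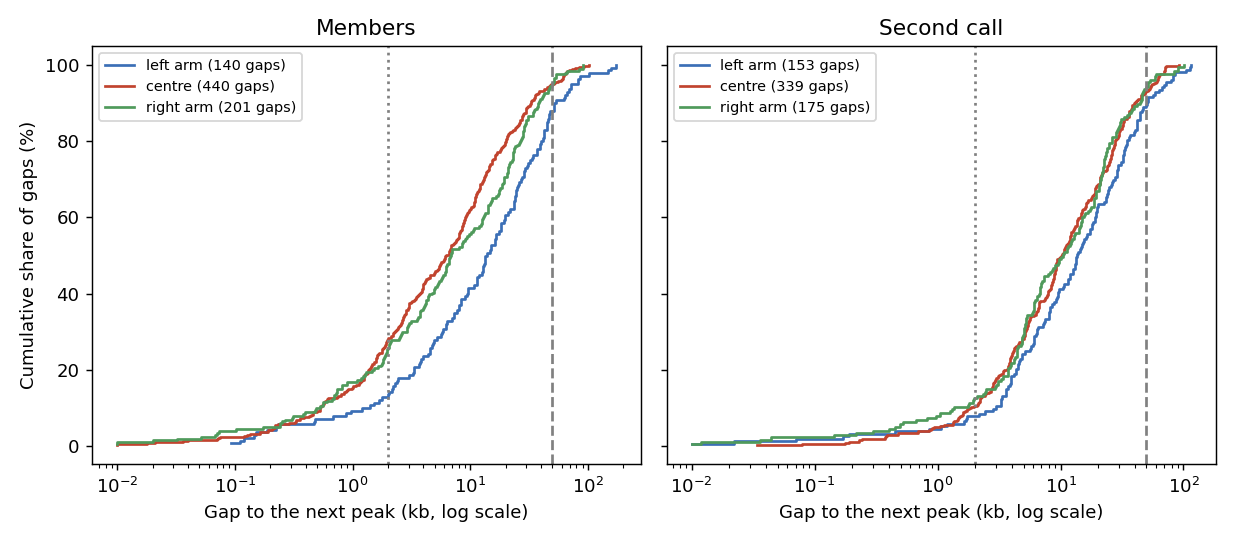
Cumulative percentage of gaps to the next peak (kb, log scale) by segment of chromosome III, for the 782 members (left) and the second call (right). Gaps under 0.01 kb are drawn at 0.01 kb, and the dotted and dashed lines mark 2 kb and 50 kb. At its median and quartiles the left-arm curve lies to the right of the others in both panels. At 2 kb the centre and right-arm curves stand at 28.2% and 25.9% among members.

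Some close peaks formed runs, here 3 or more peaks in a row with every gap under 2 kb. There were 37 runs holding 128 peaks, 24 of them in the centre (83 peaks), 10 on the right arm (36 peaks) and 3 on the left arm (9 peaks). Runs took 18.9% of centre peaks (exact 95% interval 15.3 to 22.8%), 17.9% of right-arm peaks (12.9 to 23.9%) and 6.38% of left-arm peaks (2.96 to 11.8%), against a background of 17.1% over all chromosomes. The centre and left arm differed by 12.5 percentage points (Fisher's exact test, adjusted p = 5.40e-04). With gaps under 1 kb the difference was 3.25 points (Fisher's exact test, adjusted p = 0.490), and in the 50% of peaks scoring highest it was 4.15 points (Fisher's exact test, adjusted p = 0.205). On peaks met by the second call alone it was 1.98 points and missed the threshold (Fisher's exact test, adjusted p = 0.217). Runs also rise with density alone, and a difference beyond density was not tested. The centre and right arm differed by 0.953 points (Fisher's exact test, adjusted p = 0.827), or by 9.03 points with the middle 33.3% of the chromosome as the centre (Fisher's exact test, adjusted p = 0.00846). The second call held few runs, 2 on the whole chromosome, with 6 peaks (0.898%, background 2.17%).

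The longest run lay in the centre at III:5257844-5281400. It packed 7 peaks into 23.6 kb, of which they covered 80.1%, with gaps of 18 to 1919 bp. Weak and strong peaks lay side by side in it, with scores from 84.8 to 2166, and 4 of its 7 peaks were met by 3 peaks of the second call. The peak scoring 84.8 was met, while those scoring 121.5, 126.7 and 221.2 were not.

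A run of 6 peaks lay on the right arm at III:12350566-12371378, covering 73.5% of 20.8 kb, with scores from 80.8 to 2197. All but 1 of its peaks were met, the exception being the one that scored 80.8.

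The centre run at III:5590049-5609157 held 5 peaks over 19.1 kb, and 1 of them was met, the one scoring 3100. Those not met scored from 100.1 to 907.6. The right-arm run at III:11101923-11121796 also held 5 peaks, over 19.9 kb, with scores of 620 to 3100, and 3 were met. Its peaks not met scored 679.2 and 620.5. Of the 6 runs of 4 peaks, the one at the lowest coordinate, III:3909838-3923229 near the lower bound of the centre, spanned 13.4 kb and covered 89.2% of it. Its left pair scored 51.5 and 94.8 and was not met, and its right pair scored 3100 each and was met. Over all 37 runs, 66 of 128 peaks were met (51.6%), against 527 of 654 peaks outside runs (80.6%), and 3 runs had every peak met. By segment, 3 of 9 run peaks were met on the left arm, 41 of 83 in the centre and 22 of 36 on the right arm. These shares were not tested.

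Long gaps of 50 kb or more numbered 17 on the left arm (4.57 per Mb), 22 in the centre (3.32 per Mb) and 10 on the right arm (2.90 per Mb). They took up 38.8% of the left arm, 22.4% of the centre and 19.1% of the right arm. What lay in them differed between segments. Of the 22 in the centre, 14 enclosed at least 1 peak over 5 kb and 15 at least 1 peak of the second call. On the left arm 2 of 17 enclosed a wider peak and 10 a peak of the second call, and on the right arm 2 of 10 and 4 of 10 did. Stretches of 50 kb or more without a peak of any width in either list remained in 12 of the left-arm gaps, 8 of the centre gaps and 6 of the right-arm gaps. These differences were not tested.

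The 3 longest gaps, of 173, 156 and 148 kb, all lay on the left arm. The first, III:1244094-1417352, enclosed 5 peaks of the second call, and the longest stretch free of both lists in it was 113.9 kb. The second, III:1620131-1776309, enclosed 1 such peak, and its free stretch was 84.8 kb. The third, III:1963237-2111241, enclosed 2, and its free stretch of 114.2 kb was the longest on the chromosome. No peak over 5 kb lay in any of these 3.

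Next in length, a gap of 103 kb spanned the lower bound of the centre (III:3717061-3820019). It enclosed 1 wider peak and 3 peaks of the second call, and its longest free stretch was 29.3 kb. The left-arm gap III:669031-771457 of 102 kb enclosed 1 peak of the second call. The centre gap III:9131932-9224209 (92.3 kb) enclosed 3 wider peaks and 3 of the second call. By contrast the 3 right-arm gaps among the 10 longest, III:11353678-11444809 (91.1 kb), III:12059565-12150407 (90.8 kb) and III:13011017-13095422 (84.4 kb), held no whole peak of any width in either list. The remaining gap of the 10 was III:3543753-3629417 (85.7 kb, left arm), which enclosed 1 peak of the second call.

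At a finer scale, 2 of 37 whole 100 kb windows of the left arm held no peak, against none of 65 in the centre and none of 33 on the right arm. Windows with 10 or more peaks numbered 8 in the centre, with a maximum of 14, and 4 on the right arm, with a maximum of 13, and the left arm reached at most 9. In the second call no window was empty in any segment, and 1 window in the centre and 1 on the right arm held 10 or more.

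The share of larger-list peaks met by the second call was lowest in the centre. Of the 782 peaks, 593 (75.8%) overlapped a peak of the second call at any width by at least 1 bp, against a background of 78.6% over all chromosomes. The share met was 90.1% on the left arm (127 of 141, exact 95% interval 83.9 to 94.5%), 68.9% in the centre (303 of 440, 64.3 to 73.2%) and 81.1% on the right arm (163 of 201, 74.99 to 86.3%). The centre lay below the left arm (difference of -21.21 percentage points, Fisher's exact test, adjusted p = 1.09e-06) and below the right arm (difference of -12.23, Fisher's exact test, adjusted p = 0.00192). In the 50% of peaks scoring highest both differences missed the threshold, at -6.88 and -1.91 points (Fisher's exact tests, adjusted p = 0.205 and 0.758). Below the median score, 51.1% were met in the centre (44.36 to 57.85%). The shares there were 84.5% on the left arm (72.58 to 92.65%) and 74.55% on the right arm (65.35 to 82.37%). These lower-scoring peaks were not tested apart. Both lists come from the same experiment, so the overlap itself is no independent evidence for the sites.

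Peaks met by the second call numbered 34.1 per Mb on the left arm, 45.8 in the centre and 47.3 on the right arm. Peaks not met numbered 3.76, 20.7 and 11.04 per Mb. On met peaks alone, a comparison chosen after the data were seen, the centre to left arm ratio was 1.34 (1.09 to 1.66, exact binomial test, adjusted p = 0.0200). The left to right arm ratio was 0.721 (0.567 to 0.915, exact binomial test, adjusted p = 0.0200). The centre to right arm ratio fell on the other side of 1, at 0.967 (0.797 to 1.18, exact binomial test, adjusted p = 0.733).

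Peaks not met were mostly weak and close to another peak. Their median score was 196, against 670 for met peaks. The nearest other peak of the larger list, at any width, lay under 2 kb away for 82.5% of the 189 peaks not met and for 41.8% of the 593 met. The share of peaks with such a close neighbour was 60.5% in the centre, 27.7% on the left arm and 49.3% on the right arm, so neighbour distance moved with the segment. Its part in the difference between segments was not tested. Of peaks with a neighbour under 2 kb, 57.5% were met in the centre (153 of 266, exact 95% interval 51.3 to 63.5%), 69.2% on the left arm (27 of 39, 52.4 to 83.0%) and 68.7% on the right arm (68 of 99, 58.6 to 77.6%). Of peaks at least 10 kb from any other, 28 of 29 were met in the centre, 44 of 44 on the left arm and 31 of 32 on the right arm.

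Up to 5 kb, the share met rose with width in the centre and on the right arm, but not steadily on the left. Peaks up to 1.5 kb were met in 50% of cases in the centre (35 of 70, 37.8 to 62.2%), 86.2% on the left arm (25 of 29, 68.3 to 96.1%) and 76.9% on the right arm (40 of 52, 63.2 to 87.5%). For peaks of 1.5 to 3 kb the shares were 67.5%, 91.9% and 80.4% in the same order. For peaks of 3 to 5 kb they were 81.5%, 88.5% and 89.2%, with overlapping intervals. Peaks over 5 kb were met less often than those of 3 to 5 kb, at 52.9%, 84.6% and 63.6%. These shares were not tested by width. Of the 189 peaks not met, 116 had a peak of the second call within 2 kb, and 18 had none within 10 kb. By segment, none lay within 10 kb for 10 of 137 in the centre, 2 of 14 on the left arm and 6 of 38 on the right arm.

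**Figure D4:**
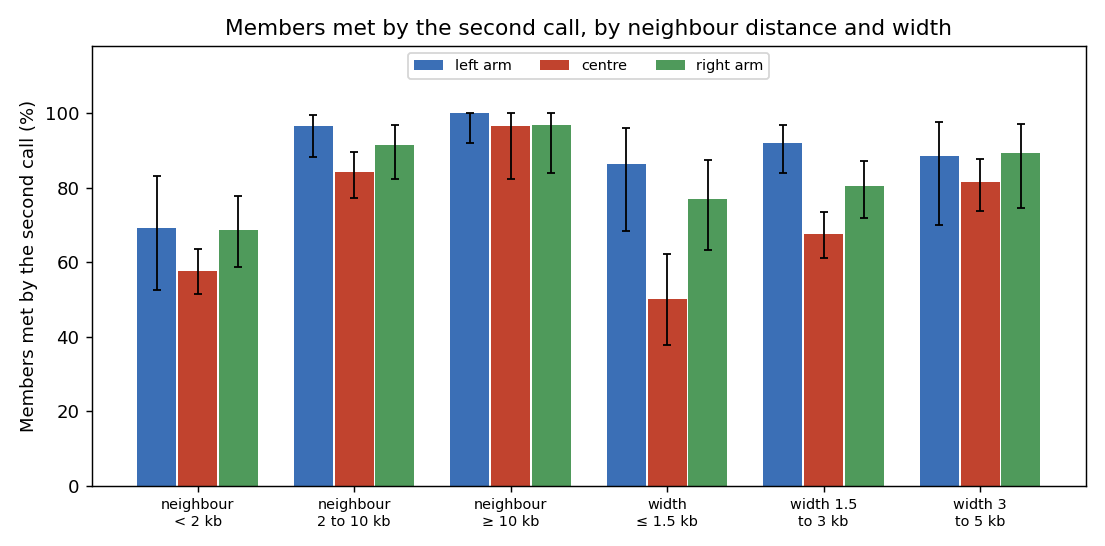
Bars plot the percentage of members met by the second call in each segment of chromosome III, by distance to the nearest peak of any width in the larger list and by the member's own width, with exact 95% intervals over peaks. Among members 10 kb or more from any other peak nearly all are met in each segment, and among members up to 1.5 kb wide the centre stands at 50%.

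Where the calls met, they placed peaks nearly identically. In 571 cases a single member met a single peak of the second call. The midpoints of these pairs lay a median of 17 bp apart, and 484 pairs (84.8%) lay within 100 bp. The shares within 100 bp were 85.6% on the left arm, 84.4% in the centre and 84.8% on the right arm. Spearman's rho of the scores was 0.851 on the left arm (125 pairs), 0.657 in the centre (295 pairs) and 0.795 on the right arm (151 pairs). The pairs share the experiment, and these values are descriptions.

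In the other direction the segments lay closer together. Of the 668 peaks of the second call, 571 (85.5%, background 84.7%) were met by the larger list at any width, 79.9% on the left arm, 87.3% in the centre and 86.9% on the right arm. The 97 not met had a median score of 92.2, against 444 for those met.

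The 5 highest-scoring members were III:1914218-1918840 (score 3183), III:4299148-4302878 (3177), III:10062871-10065682 (3175), III:1539370-1541161 (3166) and III:8604126-8606691 (3165). Those at 1914218 and 1539370 lay on the left arm and the others in the centre. Each met 1 peak of the second call, with scores of 1025, 1724, 1781, 3100 and 2176. The nearest other peak lay 2.21 to 7.36 kb away, and none of the 5 was part of a run. The site at 1914218 lies between the gaps of 156 and 148 kb.

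Chromosomes I and II were set beside III, with segments at the same share of their length. Chromosome III had 56.7 peaks per Mb, I had 60.2 and II had 46.7. The density of III was 1.21 times that of II (95% interval 1.10 to 1.35, exact binomial test, adjusted p = 4.76e-04) and 0.942 times that of I (0.855 to 1.04, exact binomial test, adjusted p = 0.304). In the centre alone the ratios were 1.30 to II (1.13 to 1.49, exact binomial test, adjusted p = 4.92e-04) and 1.05 to I (0.923 to 1.20, exact binomial test, adjusted p = 0.552).

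The order of the arms differed from that on I. There the left arm held 65.0 and the right arm 49.7 peaks per Mb, the reverse of III. Among arm peaks of III, the odds of lying on the right arm, not the left, were 2.01 times those on I (Fisher's exact test, adjusted p = 7.49e-06). The comparison was chosen after the data were seen. In the 50% of peaks scoring highest this odds ratio was 1.42 and missed the threshold (Fisher's exact test, adjusted p = 0.205). It passed the threshold in the second call, at 1.64 (Fisher's exact test, adjusted p = 0.00526). With peaks of any width it was 2.145 and also passed (Fisher's exact test, adjusted p = 1.40e-07). The same comparison was made with II. On II the left arm held 34.5 (exact Poisson 95% interval 29.1 to 40.7) and the right arm 51.2 peaks per Mb (44.2 to 58.9), and the odds ratio of III to II was 1.04 (Fisher's exact test, adjusted p = 0.827).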

How the data were processed

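Each of the 2 GFF3 lists the authors deposited gives start, end and a score per peak, of unstated scale, and names WS220 as its build, per the file headers. The submitters' processing notes name BWA without a version. Both MA2C (source field) and MACS (peak names) occur in the rows. Caller settings, use of input and pooling are not given in the sources used here. Liftover comments name 14 peaks of chromosome III in the larger list, 8 of them members, whose starts moved by 3 to 16 bp and widths by at most 2 bp. In the second call 1 peak had no start and was given position 1, and was left out of widths.

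SciPy 1.17.1, pandas 2.3.3 and NumPy 2.4.6 under Python 3.11.15 gave the values, and matplotlib 3.10.9 the plots. Segment bounds and the width limit of 5 kb came with the question, and members, tests and the rule for named sites (5 longest runs, 10 longest gaps, 5 highest scores, extreme 0.5 Mb windows of each segment, peaks beside the width limit) were chosen with earlier results of these data known. A gap belongs to the segment holding its midpoint. Density used exact binomial tests against the share of length, and shares used Fisher's exact tests, with exact (Clopper-Pearson) intervals. The functions were tested on simulated peaks. No sample columns were left unused, libraries could not be tested against each other, and ChIP was not set against input. Gene positions were given for WBcel235 only, a different build, so no gene is named, and gene density, mappability and sequence were not used here. Other peak lists, width limits, bounds, gap limits and overlaps were tried.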

Additional observations from a re-analysis of the deposited data

How the results depend on the processing

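No paired analysis was possible because neither list holds values per library, and for the same reason no library could be left out. Of the 15 tested values, the density ratio of centre to left arm passed the threshold in every alternative that tested it except the second call. In the 50% of peaks scoring highest it was 1.47 (exact binomial test, adjusted p = 0.0129). The density ratios of III to II, whole and in the centre, passed in the second call, in the 50% of peaks scoring highest and with any width. The share met by the second call kept its call with the middle 33.3% as the centre, the trimmed bounds and peaks of any width. The share met also kept its call with an overlap of 50% of the member. It lost it in the 50% of peaks scoring highest (-6.88 points to the left arm, -1.91 to the right arm). The cause was not tested in any of the cases below.

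In the second call the density ratio of centre to left arm was 1.24 and of left to right arm 0.814, and both missed the threshold. The centre's share of short gaps differed by 2.78 points from the left arm and by -1.95 from the right arm, and its share in runs by 0.885 and -0.829 points. The ratio of III to I was 1.01, and the arm odds ratio of III to II 0.909. The centre's coverage was 13.8% and its spacing 13.2 kb. In the 50% of peaks scoring highest the left to right arm ratio was 0.844. Short gaps differed by 5.91 and -0.815 points and runs by 4.15 and -4.64 points. The ratio of III to I was 1.05, and the arm odds ratios were 1.42 to I and 0.783 to II. With fewer peaks, coverage was 5.90%, 10.2% and 7.53% on left arm, centre and right arm and spacing 27.9, 19.98 and 26.5 kb, with 43 long gaps in the centre and 20 on the right arm.

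With peaks of any width the centre to right arm ratio was 1.21, the arm odds ratio of III to II 0.995, coverage 11.2%, 29.6% and 20.1%, and long gaps in the centre 12. With the middle 33.3% as the centre the centre to right arm ratio was 1.21 and runs differed by 9.03 points, with 12 long gaps in the centre and 16 on the right arm. Leaving out 0.5 Mb either side of each bound put the run difference to the right arm at -0.329 points. With members closer than 1 kb merged, spacing was 11.8 kb in the centre and 15.5 kb on the right arm. With gaps under 1 kb, short gaps differed by 5.94 and -1.69 points and runs, to the left arm, by 3.25. With gaps under 5 kb runs differed from the right arm by -0.569 points. Gaps of 30 kb or more numbered 38, 51 and 29. On members met by the second call alone, chosen after seeing the data, the centre to right arm ratio was 0.967, short gaps differed by 5.07 and -4.97 points, and runs by 1.98 and -3.54, with none of these 4 past the threshold (adjusted p of 0.123 to 0.217, Fisher's exact tests).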

Other observations

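The peaks over 5 kb on chromosome III followed the same order of segments as the narrower ones, with a wider spread. They numbered 3.50 per Mb on the left arm, 15.7 in the centre and 9.58 on the right arm, and covered 2.73%, 12.7% and 7.15% of these segments. Their median widths were 6.57, 7.16 and 6.89 kb, and the widest, in the centre, measured 22.1 kb. The second call met 11 of 13 on the left arm (84.6%) and 55 of 104 in the centre (52.9%). On the right arm it met 21 of 33 (63.6%), and over the whole chromosome 87 of 150 (58.0%). The share over all chromosomes was not taken for peaks over 5 kb. No test was run on these values.

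Peaks up to 5 kb found in the second call alone numbered 31 on the left arm (8.33 per Mb), 43 in the centre (6.50 per Mb) and 23 on the right arm (6.68 per Mb). Those found in the larger list alone numbered 3.76, 20.7 and 11.04 per Mb. The difference between these distributions was not tested.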
